A study of Drosophila melanogaster with 4 samples.

Results

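The integrin genes of Drosophila melanogaster were followed in S2 cells during the first hour of Hsp90 inhibition. They were chosen by name: mys and Itgbn for the beta subunits, and mew, if, scb, ItgaPS4 and ItgaPS5 for the alpha subunits, 7 genes among 14869 gene IDs. The name tables paired 6 of the 7 with an ID of the count files. They paired none with scb, which is not analysed here. Of the 6, 5 averaged 20 counts or more per library and entered the comparisons. The gene if averaged 11.5 and is given by its counts.

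An integrin is a pair of 1 alpha and 1 beta subunit that spans the plasma membrane. Outside the cell it binds proteins of the extracellular matrix, and inside it is tied to the actin cytoskeleton through talin and other adaptor proteins. In the fly the beta subunit encoded by mys is used in muscle attachment, wing adhesion and cell migration. Its partners include the alpha subunit of mew, which binds laminins, and that of if, which binds ligands with an RGD motif such as tiggrin. The beta subunit encoded by Itgbn is known for the uptake of dying cells and bacteria by haemocytes, the blood cells of the fly.

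The study asked how transcription responds over time when Hsp90, a chaperone that many signalling kinases need, is inhibited. S2 cells, a line of embryonic origin, were growing in Schneider medium when they received DMSO, labelled 0 min, or the Hsp90 inhibitor radicicol in DMSO at 40 µM for 15, 30 or 60 min. Polyadenylated RNA was sequenced, with 1 library per condition, so no value has a replicate error. Intervals in parentheses are 95% counting intervals, which cover counting error only.

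The DMSO library held 19153476 gene counts and the radicicol libraries 28614983 to 31028233. In DMSO 44.1% of reads were not aligned, against 17.8 to 21.5% in the radicicol libraries. Several ribosomal RNA genes were also far lower at 15 and 60 min than in DMSO. Every fold against DMSO rests on this 1 library, so treatment and library preparation were not separated. The part of these library differences in the folds was not tested. As a check of the cell label, all 10 haemocyte markers examined were above the count minimum. Their summed level was 5493 CPM (counts brought to equal depth by the effective library sizes) in DMSO and 6259 to 7965 CPM with radicicol. The sum is largely 1 gene, Pxn, with 3370.5 CPM in DMSO and 5261.7 CPM at 60 min. The median log2 fold of the 10 markers at 60 min was 0.55, or -0.22 corrected for exon length. Of the markers of other tissues, the glial gene repo had 3 to 16 counts and the mesodermal gene twi 1 or 2. The neuronal gene elav and the flight muscle actin gene Act88F were above the minimum, and both rose in the test of a trend over minutes that was applied to the integrin genes. For elav the counts were 28 in DMSO and 135, 123 and 496 with radicicol, a log2 fold of 3.40 at 60 min (2.86 to 4.01; slope adjusted p = 0.00144, edgeR), or 1.54 corrected for exon length. For Act88F they were 340, 579, 733 and 1021, a log2 fold of 0.84 (0.67 to 1.03; slope adjusted p = 0.00180, edgeR), or 1.09 corrected. The summed level of the 4 genes with an ID was 20.5 CPM in DMSO and 50.5 CPM at 60 min, and the part of these markers in the integrin folds was not tested. In bulk RNA, fewer cells of a type and less RNA per cell cannot be told apart.

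Per kilobase of exon, mys had the highest level of the 6 integrin genes with an ID in each of the 4 libraries. It was followed by mew, Itgbn, ItgaPS4, ItgaPS5 and if. In DMSO mys stood at 33.3 CPM per kb (32.1 to 34.6) and mew at 16.2 (15.4 to 17.1). Itgbn had 4.64 CPM per kb (4.12 to 5.22). The intervals of these 3 genes were apart from each other in each library.

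The other alpha genes with an ID were expressed at a far lower level. In DMSO ItgaPS4 had 0.327 CPM per kb (0.20 to 0.505) and ItgaPS5 had 0.274 (0.157 to 0.445), so these neighbours in the order overlapped. At 15, 30 and 60 min ItgaPS4 was above ItgaPS5 without overlap. The counts of if were 8 in DMSO, 13 at 15 min, 4 at 30 min and 21 at 60 min, or 0.0732 CPM per kb in DMSO (0.0316 to 0.144), and its interval at 30 min (1.09 to 10.2 counts) lay below that at 60 min (13.0 to 32.1).

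**Figure D1:**
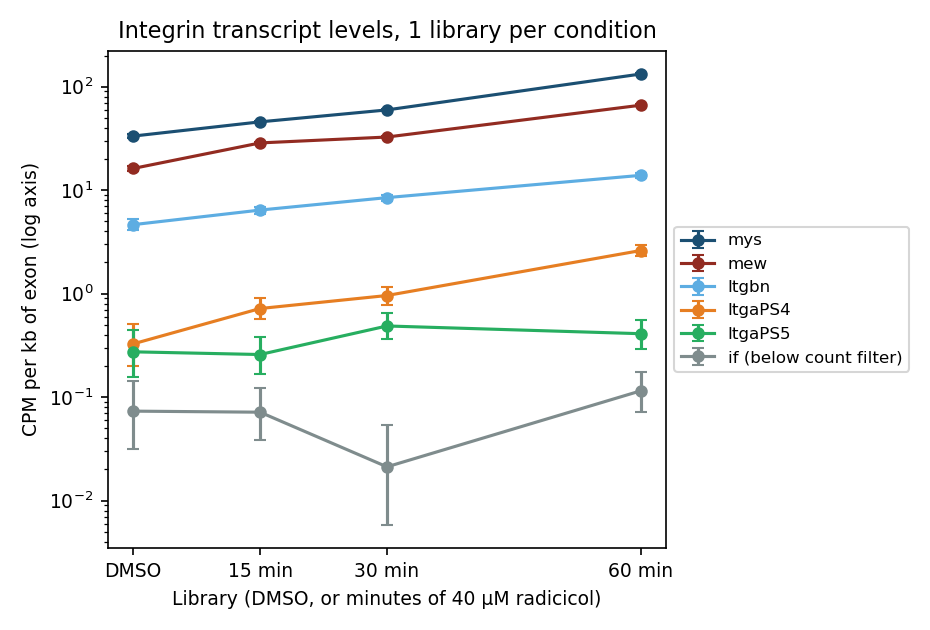
Levels of the 6 integrin genes with an ID, in CPM per kb of exon on a log axis, against the library (DMSO or minutes of radicicol). Points are single libraries and bars are 95% counting intervals. The lines of mys, mew and Itgbn keep their order, and ItgaPS4 separates from ItgaPS5 after DMSO.

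The beta genes were higher in each later library. For mys the counts were 2718 in DMSO, 6192 at 15 min, 8376 at 30 min and 18069 at 60 min, which corresponds to 149.4, 204.6, 267.2 and 594.0 CPM. No intervals of these levels overlapped. Against DMSO, the log2 fold of mys was 0.45 at 15 min (0.39 to 0.52), 0.84 at 30 min (0.78 to 0.90) and 1.99 at 60 min (1.93 to 2.05). That is 3.97 times its DMSO level.

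Itgbn had 282, 649, 887 and 1411 counts in the same order, or 15.5, 21.4, 28.3 and 46.4 CPM. These levels too were in order without overlap. Its log2 folds began as those of mys, with 0.47 at 15 min (0.26 to 0.67) and 0.87 at 30 min (0.67 to 1.07), but stood at 1.58 at 60 min (1.40 to 1.77), below mys. Of the exon length of Itgbn 18.8% overlaps another gene, where reads can be lost as ambiguous, against 0.0 to 2.1% for the other members with an ID.

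The alpha gene mew had a larger fold at 15 min than mys. Its counts were 1537, 4499, 5317 and 10486, or 84.5 CPM in DMSO and 148.7, 169.6 and 344.7 CPM at 15, 30 and 60 min. The DMSO library was lowest and the 60 min library highest, again without overlap. The log2 fold was 0.82 at 15 min (0.73 to 0.90), 1.0 at 30 min (0.92 to 1.09) and 2.03 at 60 min (1.95 to 2.11). Between 15 and 30 min it changed by only 0.19 (0.13 to 0.25).

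ItgaPS4 had the largest fold of the 5 measured integrin genes, at a low level. It had 20 counts in DMSO, 73 at 15 min, 101 at 30 min and 267 at 60 min, which is 1.10, 2.41, 3.22 and 8.78 CPM. The DMSO interval (0.672 to 1.70 CPM) was below all 3 radicicol libraries, while those at 15 and 30 min overlapped. Its log2 fold was 1.13 at 15 min (0.40 to 1.93), 1.55 at 30 min (0.85 to 2.32) and 3.0 at 60 min (2.34 to 3.73).

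ItgaPS5 had 16, 25, 49 and 40 counts or 0.880, 0.826, 1.56 and 1.31 CPM, and reached the mean of 20 counts through the radicicol libraries. The intervals of all 4 levels overlapped, those at 15 and 30 min by little. Against DMSO the log2 fold was -0.09 at 15 min (-1.05 to 0.91), 0.83 at 30 min (-0.01 to 1.74) and 0.58 at 60 min (-0.29 to 1.52), so no difference from DMSO was detectable at this depth. From 15 to 30 min the log2 fold was 0.92 (0.20 to 1.68).

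Single genes were tested for a log-linear trend over minutes across the 4 libraries (edgeR quasi-likelihood test). A gene passed below 0.05 after Benjamini-Hochberg adjustment over every measured gene. Its p-values measure scatter about that trend and no spread between cultures. Of the 5 measured integrin genes 4 rose and 0 fell. Over 7883 measured genes 34.1% rose and 33.8% fell, so a pass of this test is common.

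The slope, as log2 change per 60 min, was 1.99 ± 0.12 (SE) for mys with adjusted p = 0.000262 by edgeR. It was 1.91 ± 0.17 for mew (adjusted p = 0.000458, edgeR), 1.56 ± 0.12 for Itgbn (adjusted p = 0.000361, edgeR) and 2.78 ± 0.27 for ItgaPS4 (adjusted p = 0.000585, edgeR). ItgaPS5 had 0.68 ± 0.47 and did not pass (adjusted p = 0.233, edgeR). The same 4 genes passed when any 1 library was left out, DMSO included. Here and below, the share of all measured genes passing without a library is not given. Such counts therefore cannot be set against a background. Without the 60 min library the slope of ItgaPS5 was 1.95 (adjusted p = 0.123, edgeR).

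Pairs of libraries were compared by size, with no p-value: a gene is called higher when its log2 fold is at least 1 with the counting interval above 0. At 15 min against DMSO 1 of the 5 measured genes, ItgaPS4, was higher, beside 1.40% of all measured genes. At 30 min 2 of 5, ItgaPS4 and mew, were higher, beside 3.35%. The fold of mew at 30 min was 2.01, at the edge of the rule. At 60 min 4 of 5, all but ItgaPS5, were higher, beside 19.7% of all measured genes. No member was lower, beside 1.23, 1.32 and 12.6% of all genes at the 3 times.

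The median log2 fold of the 5 genes at 60 min was 1.99, against -0.02 over all measured genes. Of all measured genes, 93.5% had a smaller fold than mys at 60 min, and 93.7% a smaller one than mew. For ItgaPS4 the share was 98.1%, for Itgbn 90.0% and for ItgaPS5 69.7%.

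Radicicol libraries were also compared with each other, with library sizes and a count minimum that still take in the DMSO library. From 15 to 60 min 4 of 5 genes were higher, beside 13.0% of all genes: mys by a log2 fold of 1.54 (1.5 to 1.58), mew by 1.21 (1.16 to 1.26), Itgbn by 1.11 (0.98 to 1.25) and ItgaPS4 by 1.86 (1.48 to 2.26). From 30 to 60 min 3 of 5 were higher, beside 9.81%: mys with 1.15 (1.12 to 1.19), mew with 1.02 (0.98 to 1.07) and ItgaPS4 with 1.45 (1.11 to 1.79). Itgbn had 0.71 (0.59 to 0.84) in that step. The call of mew from 30 to 60 min was lost with total gene counts as library size (0.97). From 15 to 30 min 0 of 5 were higher, beside 0.799%. None was lower in these 3 comparisons, beside 2.90, 1.03 and 0.444% of all genes.

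**Figure D2:**
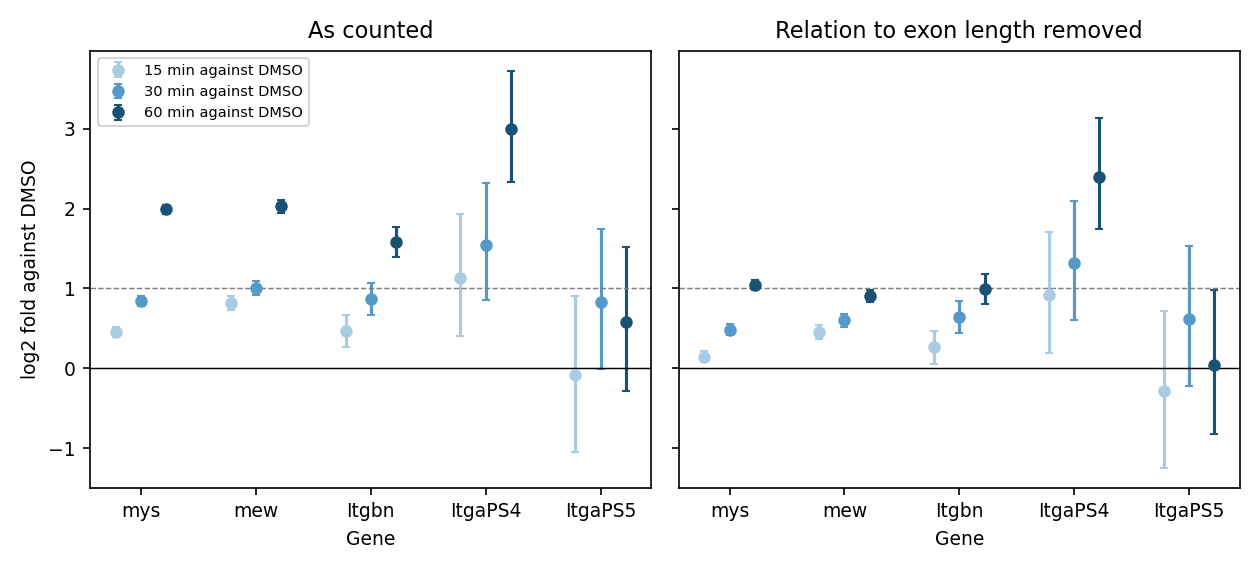
Log2 folds of the 5 measured integrin genes against DMSO at 15, 30 and 60 min, as counted (left) and corrected for exon length (right). Points are single comparisons of 2 libraries, bars are 95% counting intervals and the dashed line marks 2-fold. At 60 min mys and mew stand near 2 on the left and near 1 on the right, and ItgaPS4 stays at 2.40.

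Exon length moved with the fold in these libraries, and the integrin genes are long. The 5 measured genes have 3.21 to 5.20 kb of exon. Over all measured genes with an exon length, the median log2 fold at 60 min was -0.82 in the quartile of shortest exons and 1.02 in that of the longest. At 15 min these medians were -0.31 and 0.32. Among the 1957 measured genes at least as long as ItgaPS5, the shortest of the 5, 2.30, 5.98 and 48.4% were higher at 15, 30 and 60 min and 74.5% rose. The 4 of 5 integrin genes that rose thus stand near the share among long genes.

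The relation between fold and exon length was then removed by a smooth fit over all genes (corrected for exon length). The folds of the 5 genes against DMSO were lower and kept their sign at each time. At 60 min mys had 1.04 (0.98 to 1.10) and ItgaPS4 2.40 (1.75 to 3.14), and these 2 of 5 were higher, beside 8.01% of the genes with a length. Itgbn (0.99, 0.81 to 1.18) and mew (0.91, 0.83 to 0.98) were just short of 2-fold, and ItgaPS5 had 0.04 (-0.82 to 0.98). At 30 min only ItgaPS4 was higher (1.32, 0.61 to 2.09), beside 2.13%, and at 15 min no member was, beside 0.790%, with ItgaPS4 at 0.92. Between radicicol libraries, ItgaPS4 alone was higher from 15 to 60 min (1.48, 1.10 to 1.88), beside 5.60%, and from 30 to 60 min (1.09, 0.75 to 1.43), beside 3.10%.

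The slopes after this removal were 1.08 ± 0.08 for mys (adjusted p = 0.000223, edgeR) and 0.82 ± 0.12 for mew (adjusted p = 0.00152, edgeR). Itgbn had 0.99 ± 0.11 (adjusted p = 0.000614, edgeR) and ItgaPS4 2.19 ± 0.24 (adjusted p = 0.000670, edgeR). These 4 of 5 rose, beside 22.4% of the genes with a length (33.9% fell), and ItgaPS5 (0.16 ± 0.49) did not pass (adjusted p = 0.791, edgeR). Of the genes with a length, 92.3% then had a smaller fold at 60 min than mys, 90.7% than mew, 91.9% than Itgbn and 98.3% than ItgaPS4. Beyond this correction the part of exon length in the folds was not tested.

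**Figure D3:**
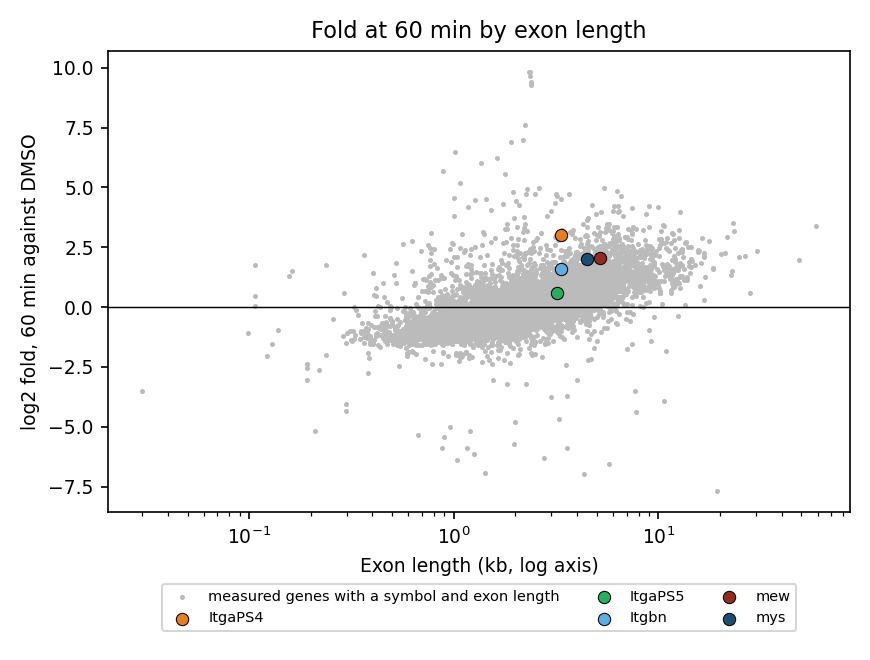
Log2 fold at 60 min against DMSO by exon length (kb, log axis) for the measured genes with a symbol and an exon length, 1 grey point each, with the 5 measured integrin genes in colour. The cloud climbs with length; ItgaPS4 at 3.0 lies near its upper edge, and ItgaPS5 at 0.58 lies inside it.

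Ratios between members within a library do not depend on the library size. Exon length here covers all annotated exons of a gene, so these are ratios of counts and not of transcript numbers. Per exon length the ratio of mew to mys was 0.487 in DMSO (0.457 to 0.519) and 0.626 at 15 min (0.602 to 0.650). The ratio was 0.547 at 30 min (0.528 to 0.566) and 0.50 at 60 min (0.488 to 0.512). Thus mew gained on mys in the first 15 min, and by 60 min the interval overlapped that of DMSO again. The exon lengths of these genes, 5.20 and 4.48 kb, are close, and the log2 folds at 15 min corrected for exon length still differed, at 0.46 (0.37 to 0.54) for mew and 0.14 (0.08 to 0.21) for mys.

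Itgbn kept its ratio to mys up to 30 min and had a lower one at 60 min. Per exon length this ratio was 0.139 in DMSO (0.123 to 0.157), 0.141 at 15 min (0.130 to 0.153) and 0.142 at 30 min (0.132 to 0.152), all within each other's intervals. At 60 min it was 0.105 (0.0992 to 0.111), below the other libraries without overlap. The folds at 60 min corrected for exon length, 0.99 (0.81 to 1.18) for Itgbn and 1.04 (0.98 to 1.10) for mys, overlapped.

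The ratio of ItgaPS4 to mys went from 0.00981 in DMSO (0.00598 to 0.0152) to 0.0157 (0.0123 to 0.0198) and 0.0161 (0.0131 to 0.0196) at 15 and 30 min, and to 0.0197 at 60 min (0.0174 to 0.0222). The 60 min library was above DMSO without overlap. ItgaPS5 and ItgaPS4, similar in DMSO with a ratio of 0.838 (0.406 to 1.70), were far apart at 60 min with 0.157 (0.110 to 0.219).

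**Figure D4:**
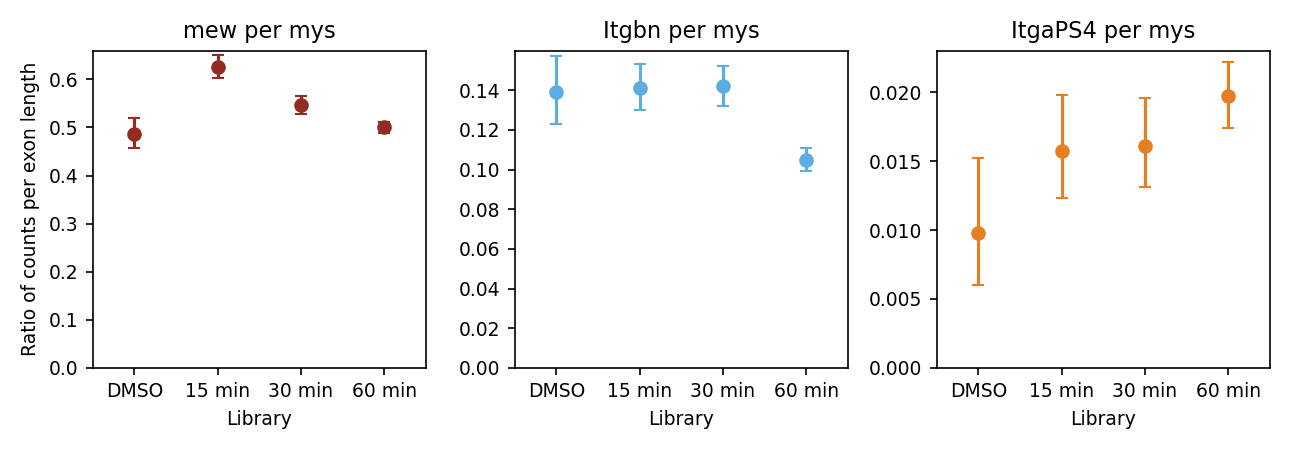
Ratios of mew, Itgbn and ItgaPS4 to mys (counts per exon length, axes from 0) in each library, with 95% counting intervals. The mew ratio is highest at 15 min (0.626), the Itgbn ratio is lowest at 60 min (0.105), and the ItgaPS4 ratio is highest at 60 min (0.0197).

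Summed over the members with an ID, levels per exon length were higher for the beta genes than for the alpha genes in every library. The alpha genes made 16.9 CPM per kb and the beta genes 38.0 in DMSO, and 69.4 and 146.4 at 60 min. The alpha to beta ratio was 0.445 in DMSO, 0.569 at 15 min, 0.50 at 30 min and 0.474 at 60 min. Most of each sum came from 1 gene, since mew made 95.5 to 96.5% of the alpha sum and mys 87.6 to 90.5% of the beta sum. The alpha sum, the share of mew in it and the alpha to beta ratio lack scb.

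As counted, the time courses also differed in when the gain came. Of its gain in CPM between DMSO and 60 min, mys had 12.4% at 15 min and 26.5% at 30 min. For mew these shares were 24.7 and 32.7%, for ItgaPS4 17.1 and 27.6%, and for Itgbn 19.2 and 41.4%. Per 15 min, the log2 change of mys was 0.45, 0.38 and 0.58 in the steps to 15, 30 and 60 min, and that of mew 0.82, 0.19 and 0.51. Itgbn, with 0.47, 0.40 and 0.36, was the measured gene with the most even steps as counted. Corrected for exon length, the whole steps to 15, 30 and 60 min were 0.26, 0.38 and 0.36 for Itgbn. They were 0.14, 0.34 and 0.56 for mys and 0.46, 0.14 and 0.31 for mew, where the last step spans 30 min. The evenness of steps was not tested.

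Genes that act around integrins were read from lists chosen by what they are known to do. Of 16 matrix ligands and basement membrane genes 12 had an ID and 9 were measured, of which 8 rose, 1 fell and 4 were higher at 60 min, with a median log2 fold of 0.92. Over all measured genes 34.1% rose, 33.8% fell and 19.7% were higher at 60 min, with a median of -0.02. Among the genes at least as long as ItgaPS5, 74.5% rose and 48.4% were higher at 60 min. The highest were the laminin alpha genes wb (2.49, 2.24 to 2.75) and LanA (1.97, 1.94 to 2.0) and the integrin ligand gene Tig (1.44, 1.40 to 1.48), whose product is tiggrin. The lowest were SPARC, a collagen-binding matrix protein gene, which fell (-0.96, -0.97 to -0.94), the glutactin gene Glt (0.47, 0.45 to 0.48) and the peroxidasin gene Pxn (0.64, 0.63 to 0.66), which rose. Corrected for exon length 1 of the 9, wb, rose and 4 fell, the median was -0.29, and LanA and Tig had 0.02 and 0.01. Of all genes with a length 22.4% rose and 33.9% fell after this correction, with a median of -0.11, so these counts are near the background. As counted, 1 rose and 0 fell without the 60 min library, and 6 rose and 0 fell without DMSO. The summed level of the list was 13647 CPM in DMSO and 19877 CPM at 60 min.

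Proteins on the cytoplasmic side link integrins to actin. Of 19 symbols 16 had an ID and were measured, of which 15 rose, 0 fell and 8 were higher at 60 min, with a median of 0.94, beside 34.1, 33.8 and 19.7% of all measured genes. Among the genes at least as long as ItgaPS5, 74.5% rose and 48.4% were higher at 60 min. The highest were rhea, the talin gene, with 2.88 (2.76 to 3.0), wech, whose product joins talin to integrin-linked kinase, with 2.63 (2.41 to 2.85), and cher, a filamin gene, with 2.20 (2.17 to 2.24). The lowest were the gene of integrin-linked kinase and those of associated proteins: Ilk had 0.21 (0.13 to 0.30) and did not pass (adjusted p = 0.118, edgeR), while ics and parvin rose to 0.40 (0.31 to 0.50) and 0.57 (0.48 to 0.66).

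Corrected for exon length the order within this list changed. The median was 0.60, 10 rose and 1, the focal adhesion kinase gene Fak, fell, beside 22.4 and 33.9% of the genes with a length. At 60 min rhea had 0.98, wech 1.05 and cher 0.46, and parvin 0.68, ics 0.58 and Ilk 0.11. The highest corrected fold of the list was that of p130CAS (1.33), and the lowest that of Fak (-0.38). Without the 60 min library 7 of the 16 rose, as counted.

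Of 14 other matrix and cell adhesion receptors and their partners 11 had an ID and 8 were measured. All 8 rose, with 7 higher at 60 min and a median of 1.30, beside 34.1% rising and 19.7% higher among all measured genes. Among the genes at least as long as ItgaPS5, 74.5% rose and 48.4% were higher at 60 min. The highest was shg, the E-cadherin gene, with 50 counts in DMSO and 1350 at 60 min (4.01, 3.61 to 4.45), followed by the adhesion gene Nrt (2.05, 1.81 to 2.31) and the syndecan gene Sdc (1.65, 1.5 to 1.80). The lowest were the beta-catenin gene arm (0.79, 0.75 to 0.83), the dystroglycan gene Dg (1.05, 0.98 to 1.13) and alpha-Cat (1.06, 0.99 to 1.13). Corrected for exon length 6 rose, beside 22.4% of the genes with a length, and the median was 0.66, with shg at 2.68 and Dg at -0.30. As counted, 5 rose without the 60 min library.

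Phagocytic receptors, which serve the process Itgbn is known for, had the lowest median of the 5 lists read here. Of 9 symbols all had an ID and 7 were measured: 3 rose, 0 fell and 1 was higher at 60 min, with a median of 0.23. The counts that rose and that were higher are near the 34.1 and 19.7% of all measured genes, of which 33.8% fell. The highest were Dscam1 (2.13, 1.96 to 2.31), drpr, the receptor for dying cells (0.97, 0.91 to 1.03), and crq (0.50, 0.42 to 0.58), and these 3 rose. The lowest were PGRP-LC (-0.17, -0.31 to -0.02), NimC1 (-0.01, -0.10 to 0.09) and Sr-CI (0.18, 0.15 to 0.21), none of which passed (adjusted p = 0.221, 0.860 and 0.345, edgeR). Corrected for exon length 0 rose and 4 fell, Dscam1 (-0.54) among them, beside 22.4 and 33.9% of the genes with a length. As counted, 0 rose without the 60 min library.

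Matrix proteases were a short list, with 2 measured members of 4 symbols. Mmp1, which cleaves matrix proteins, rose to 3.10 (3.01 to 3.19) and Mmp2 to 1.40 (1.28 to 1.52). Of all measured genes 34.1% rose, and 74.5% of those at least as long as ItgaPS5. Corrected for exon length the pair had 2.06 and 0.30, and only Mmp1 rose, beside 22.4% of the genes with a length. The inhibitor gene Timp had 3 to 9 counts in the 4 libraries.

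**Figure D5:**
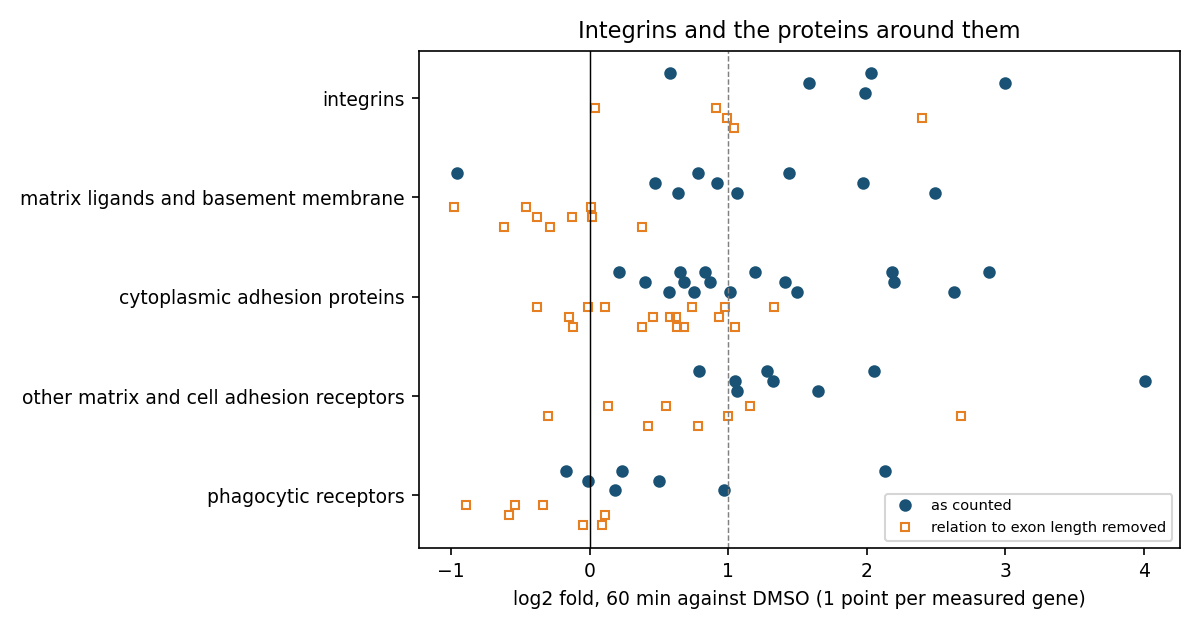
Log2 fold at 60 min against DMSO for each measured gene of the integrins and of 4 lists around them, as counted (filled) and corrected for exon length (open). Position within a band has no meaning and the dashed line marks 2-fold. The integrins, the cytoplasmic adhesion proteins and the other matrix and cell adhesion receptors stay mostly above 0 in both forms. Once length is removed, their medians are 0.99, 0.60 and 0.66. The matrix and phagocytic lists centre below 0 in the second form (medians -0.29 and -0.34), where the median of all genes with a length is -0.11.

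The genes nearest to each integrin gene were found by distance over the 3 log2 folds against DMSO, which share the DMSO library, so likeness is a description of these libraries. Nearest to mys were CG7536, PEK, the kinase gene of the translational stress response, and CG6191, at distances of 0.0742, 0.0868 and 0.0937 log2 units, among 333 genes within 0.5. Nearest to mew were the Eph receptor ligand gene Ephrin (0.105), the Smad gene Smox (0.123) and the phosphodiesterase gene Pde11 (0.124), among 204.

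For Itgbn the nearest were cin (0.0371), sano (0.0449) and Swip-1 (0.0596), among 457 genes within 0.5. The distances take no account of counting error, and cin and sano averaged only 29.0 and 101.0 counts, against 7372.0 for Swip-1. ItgaPS4 had fewer like it, 36 genes, led by CG4194 (0.190), ena, which encodes an actin regulator (0.222), and ATP8B (0.271). For ItgaPS5, with 49, they were CG34057 (0.219), nAChRbeta2 (0.284) and the mitochondrial carrier gene Ucp4B (0.289). No other integrin gene was among the 3 nearest of any member.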

How the data were processed

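The authors deposited raw read counts per FlyBase gene, 1 file per library, without normalisation. Bowtie, HTSeq and the build dm3 appear in the submitters' processing notes. Their versions and settings, whether strand was used, and the annotation were not given in the sources used here. The 5 HTSeq entries that name no gene stayed out of library sizes and tests; no_feature and ambiguous reads together were 9.0 to 14.4% of all reads. Of 14869 IDs 13533 were paired with a symbol (9 by RefSeq synonyms), and 13524 with an exon length from a later annotation (Ensembl, BDGP6), so no coordinates are printed. No tests of list members alone were made.

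In R 4.3.3, TMM library sizes (edgeR 4.0.16, DMSO as reference) were computed on the genes that averaged 20 counts or more, the measured genes. Levels are CPM, per kb where genes are compared. Folds of pairs have exact Clopper-Pearson intervals and levels exact Poisson intervals, both at 95%; a pair was called at 2-fold. Without molecular identifiers reads are not independent, so intervals cover counting error only. The slope test used glmQLFit and glmQLFTest with 2 residual degrees of freedom, tested on simulated data. The length relation was removed by loess (span 0.5) of each library's log2 fold on log exon length, centred on its median. DESeq2 1.42.0 was an alternative.

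All members are named; of each list the 3 highest and 3 lowest log2 folds at 60 min were named, and for each measured member the 3 nearest genes. Beyond that rule, genes were named after their values were seen where a small count rests on them. The same holds for p130CAS, named for its fold corrected for exon length. The members, lists and tests were chosen with earlier results of these data known. The alternatives are library size, filter, tool, time scale, exon length, fold, interval and leaving out each library.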

Additional observations from a re-analysis of the deposited data

How the results depend on the processing

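The count of 4 integrin genes that rose held under all 11 alternatives to the slope test, with slopes of 1.08 to 2.06 for mys, 0.82 to 2.03 for mew, 0.99 to 1.74 for Itgbn and 2.19 to 2.97 for ItgaPS4. The size of the adjusted p-values depended strongly on the setting. For mys it was 0.00644 (edgeR) with the order of libraries as the time scale. With library sizes without the 50 most abundant and heat shock genes it was 9.80e-26 (edgeR). With no count filter if had a slope of 0.78 ± 0.80 (adjusted p = 0.482, edgeR). Removing the length relation gave the lowest slopes, and counts of higher genes of 0, 1 and 2 at 15, 30 and 60 min against DMSO, and 1 from 30 to 60 min and 1 from 15 to 60 min. In the lists it left 1 matrix gene rising and 4 falling, 1 cytoplasmic gene falling, 0 phagocytic genes rising and 4 falling, and 1 protease gene rising. At 1.5-fold, 2 and 4 integrin genes were higher at 15 and 30 min, and 1, ItgaPS5, from 15 to 30 min. The share of all measured genes at 1.5-fold is not given, and a looser rule also lets more of them pass. Without 1 library at a time, rising genes numbered 1 to 8 (matrix), 7 to 15 (cytoplasmic), 5 to 8 (other receptors) and 0 to 3 (phagocytic), lowest without the 60 min library, and falling matrix genes 0 to 1. The shares of all measured genes in these fits are not given. With total counts as library size the median of all genes moved by 0.15 at 15 min, where 192 genes were higher and 87 lower in place of 110 and 97; without the 50 most abundant and heat shock genes these were 163 and 89. From 15 to 60 min the split of 1026 to 229 became 879 to 346 and 798 to 476, with medians of -0.13 and -0.20. Calls lost under these library sizes were mew from 30 to 60 min (0.97 and 0.88) and, under the second, Itgbn from 15 to 60 min (0.93). The cause of these changes was not tested. Each fit without a library had 1 residual degree of freedom. No paired analysis was possible because each condition has 1 library. Depth limits if, ItgaPS5 and ItgaPS4 in DMSO.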
